A study of Mus musculus with 17 samples.

Results

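Transformed and immortalized mouse embryonic fibroblasts (MEFs) that lack Usp28 are compared here. The comparison takes 2 libraries of Ras-transformed -/- cells and 3 libraries of immortalized -/- cells, chosen by the genotype and transformation labels, of 17 libraries in the series. RNA selected for poly(A) tails was sequenced on an Illumina Genome Analyzer IIx. The study asked how the dose of Usp28 bears on the ubiquitin ligase subunit Fbw7 and on oncogenic transformation.

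All cells were MEFs of embryonic day E13.5 from the strain C57bl/6, and all were immortalized with pRetroSuper-shp19ARF, a vector whose name gives a short hairpin against p19ARF. The Ras -/- cells were Usp28-deleted cells that then received pBabe-HRasG12V, which carries activated HRas, and pWZL-GFP. The immortalized -/- cells were Usp28-deleted cells with neither of these vectors. For comparison, the same pair of conditions was taken from +/+ cells (2 Ras and 3 immortalized libraries) and from +/- cells (2 Ras and 3 immortalized libraries). Replicates of the immortalized set are described as biological, and the number of embryos or clones behind a group is not given in the sources used here. Activated Ras, the GFP vector and the experiment set differ together between the groups and cannot be told apart. The main comparison is therefore a description with no test, and only the difference between the Ras over immortalized ratio of -/- cells and that of another genotype was tested.

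Both conditions are summarised as group values in the deposited tables, with no values for single libraries. Each level stands for a whole group and is in RPM, the gene's reads in every 1000000 reads of its group, and the spread between the libraries cannot be shown. A ratio is the log2 of the Ras level over the immortalized level, minus the value of the median gene, which was 0.09. The standard error (SE) beside a ratio is implied by the reads and by the dispersion common to all genes that the deposited p-values hold. It is not a spread measured for that gene, and it understates the error of a gene that is more variable than the common dispersion. Of 33440 gene IDs in both tables, 16187 had a mean level of at least 1 RPM over the Ras -/- and immortalized -/- groups, and 98.8% of these have a symbol. The lowest mean kept was 1 RPM and the highest left out was 0.9998 RPM.

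Usp28 is a deubiquitinase that can remove ubiquitin from proteins marked by the SCF ligase with its subunit Fbw7, among them Myc, c-Jun and cyclin E. HRas is a small GTPase that in its activated form drives the Raf, MEK and ERK kinases, and this pathway induces its own inhibitors, such as the Sprouty proteins and dual-specificity phosphatases. In fibroblasts, Ras transformation is known for loss of actin stress fibres and of extracellular matrix. Type I interferon acts through a receptor, Jak kinases and a factor that holds Stat2 and Irf9, which binds a DNA element of interferon-stimulated genes.

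By the rebuilt levels, the libraries together held 13950000 reads for Ras -/- and 11390000 reads for immortalized -/-, and 1 read was worth 0.0717 RPM in Ras -/- and 0.0878 RPM in immortalized -/-. Usp28 was at 14.8 RPM in Ras -/- and 13.3 RPM in immortalized -/-, against 26.5 RPM in Ras +/+ and 16.5 RPM in immortalized +/+, and 18.6 RPM in Ras +/- and 9.96 RPM in immortalized +/-. Its level was not lowest in -/- among the immortalized groups. Which part of the gene is deleted is not given in the sources used here, so reads over the whole gene do not check the genotype. Transcripts of the sex chromosomes differed between the groups. Xist, the transcript of the inactive X chromosome, had 3 reads in Ras -/- (0.215 RPM) against 126 RPM in immortalized -/-. The Y-linked Ddx3y was at 57.5 RPM in Ras -/- and 43.8 RPM in immortalized -/-, so immortalized -/- held both Xist and Y-linked transcripts. Eif2s3y, another Y-linked gene, was at 22.4 RPM in Ras -/- and 14.9 RPM in immortalized -/-. In the +/+ cells it was the Ras group that held more Xist, at 336 RPM against 89.7 RPM in immortalized +/+, and Ddx3y was at 10.7 RPM in Ras +/+ and 38.3 RPM in immortalized +/+. What part this difference has in the other results was not tested.

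Fibroblast markers were present in both groups, with all 12 listed genes measured and a summed level of 16349.6 RPM in Ras -/- and 29642 RPM in immortalized -/-. Vim, the intermediate filament of mesenchymal cells, was at 3500.5 RPM in Ras -/- and 4676 RPM in immortalized -/-. Thy1, a surface marker of many fibroblasts, was at 0.502 RPM in Ras -/- against 289 RPM in immortalized -/-, a ratio of -9.26 (SE 0.59). Markers of other cell types summed to lower levels in Ras -/- than in immortalized -/- for each type listed. The 10 epithelial genes summed to 2.01 RPM in Ras -/- and 68.9 RPM in immortalized -/-, and the 8 mesothelial genes to 7.02 RPM in Ras -/- and 82.3 RPM in immortalized -/-. Krt19, a keratin that stands on both lists, made up most of these sums, at 0.215 RPM in Ras -/- and 67 RPM in immortalized -/-. Without Krt19, the epithelial sums were 1.79 RPM in Ras -/- and 1.85 RPM in immortalized -/-, and the mesothelial sums 6.81 RPM in Ras -/- and 15.3 RPM in immortalized -/-. The 8 endothelial genes summed to 5.02 RPM in Ras -/- and 23.5 RPM in immortalized -/-. For 9 leukocyte genes the sums were 23.4 RPM in Ras -/- and 33.4 RPM in immortalized -/-, for 8 muscle genes 14.9 RPM in Ras -/- and 20.3 RPM in immortalized -/-, and for 9 neural genes 181 RPM in Ras -/- and 316 RPM in immortalized -/-. The 10 cartilage genes summed to 45.3 RPM in Ras -/- and 138 RPM in immortalized -/-, and the 8 adipocyte genes to 11 RPM in Ras -/- and 52.4 RPM in immortalized -/-. Ptprc, the pan-leukocyte marker, had 0 reads in Ras -/- and 0.264 RPM in immortalized -/-, and Myod1, Sox10 and Adipoq had 0 reads in both groups. In bulk RNA, fewer cells of a type and less RNA per cell cannot be told apart.

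Ras -/- cells differed from immortalized -/- cells more often by lower than by higher levels. At least 4-fold higher were 387 genes (2.39% of those measured) and at least 4-fold lower were 867 (5.36%). At least 2-fold higher were 1468 genes (9.07%) and at least 2-fold lower 1743 (10.8%). The 2-fold counts of gene lists below are to be read beside these shares. The quartiles of all ratios were -0.46 and 0.45, and the median SE was 0.26. In Ras -/-, 124 of the measured genes had 0 reads, and in immortalized -/- 17 had 0 reads.

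**Figure D1:**
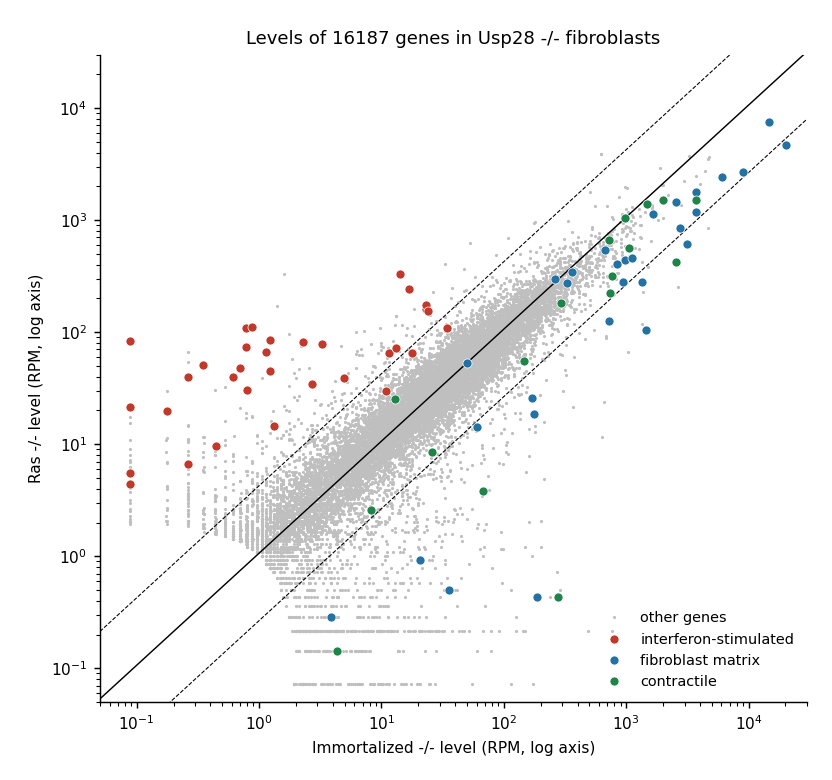
Level of each measured gene in Ras -/- cells (vertical axis, RPM, log scale) against immortalized -/- cells (horizontal axis, RPM, log scale), with genes at 0 reads drawn at 3 reads. The solid line marks the median gene and the dashed lines 4-fold differences; interferon-stimulated genes lie mostly above the upper dashed line and matrix and contractile genes mostly on or below the solid line.

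Ratios were ranked among protein-coding or unclassified genes with a symbol and at 10 RPM or more in either group. The 15 largest included Oas2, Mx1, Oas1a, Iigp1, Ifit1, Oasl2 and Usp18 of the interferon list. The others were Oas1g, Slfn3, Ifi203, C3, Slpi, Gata4, Bmp2 and the predicted gene Gm43302. C3, the central component of complement, was at 331 RPM in Ras -/- against 1.59 RPM in immortalized -/-, a ratio of 7.62 (SE 0.41). Slpi, a secreted inhibitor of leukocyte proteases, was at 54.1 RPM in Ras -/- against 3 reads (0.264 RPM) in immortalized -/-, a ratio of 7.59 with a 95% counting interval of 6.04 to 9.88. Gata4, a transcription factor of heart and gut mesoderm, had 17.6 RPM in Ras -/- and 1 read in immortalized -/- (ratio 7.56, interval 5.07 to 12.87). Of these, C3 was also higher in Ras +/+ than in immortalized +/+, with a ratio of 4.93, whereas the ratio of Slpi was -1.73 in +/+ and 2.13 in +/-.

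The 15 smallest ratios of the same ranking were those of Coch, Igfbp2, Dlk1, Gjb2, Thbd, Cnn1, Thy1, Igf2, Alcam and Thbs2, followed by Efemp1, Hpgd, Cyp1b1, Slc1a6 and Gpx7. Noncoding RNAs such as Meg3, H19 and Xist, which are described elsewhere, were not ranked. Coch, a secreted protein of the inner ear matrix, had 1 read in Ras -/- against 173 RPM in immortalized -/- (ratio -11.32, interval -16.63 to -8.84). Thbd, the thrombin receptor thrombomodulin, had 0 reads in Ras -/- against 144 RPM in immortalized -/-, which is at least 713-fold lower against a floor of 3 reads over the group. Gjb2, a gap junction protein, had 0 reads in Ras -/- against 149 RPM in immortalized -/- and was at least 734-fold lower. Cyp1b1, a cytochrome P450 enzyme, was at 0.717 RPM in Ras -/- and 270.2 RPM in immortalized -/- (ratio -8.65, SE 0.51). In Ras +/+ and immortalized +/+ its levels were 221 and 199 RPM.

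Interferon-stimulated genes were higher in Ras -/- than in immortalized -/- for every listed gene found. Of 34 found, 33 reached the level minimum, and 15 of these were under 1 RPM in immortalized -/- and passed only through Ras -/-. Without a minimum, 34 of 34 were at least 2-fold higher and the median ratio was 4.84. With the minimum, 33 of 33 were at least 2-fold higher and 30 at least 4-fold higher, with a median of 5.05, against a median of 0.34 in the +/+ comparison and -0.82 in the +/- comparison. The summed level of the 33 genes was 2498 RPM in Ras -/- and 213 RPM in immortalized -/-, against 327 RPM in Ras +/+ and 265 RPM in immortalized +/+.

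Promoter sequences are shown for 6 of these genes because they share the element of the interferon response. RefSeq promoters of assembly GRCm38.p6 were at hand for 22 of the 33 genes, and the first start site listed for each was read over the 250 bases before it, on both strands. The core of the interferon-stimulated response element, GAAANNGAAA, was found in 11 of the 22 (50%), in 2.58% of the 10393 promoters of measured genes and in 3.04% of all 27025 promoters. A match is a description of letters and not a measured binding site. The windows run 5′ to 3′ along the gene, with matches in capitals and overlapping matches in 1 run. They lie at chr4:156200867-156200916 (Isg15, minus strand), chr19:34640765-34640814 (Ifit1, plus strand), chr3:142559979-142560028 (Gbp3, plus strand), chr19:34583353-34583402 (Ifit3, plus strand), chr3:142620584-142620633 (Gbp2, plus strand) and chr11:48871421-48871470 (Irgm1, minus strand).
Isg15: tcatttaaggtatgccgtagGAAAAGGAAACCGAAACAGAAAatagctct
Ifit1: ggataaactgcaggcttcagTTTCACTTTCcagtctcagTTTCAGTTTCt
Gbp3: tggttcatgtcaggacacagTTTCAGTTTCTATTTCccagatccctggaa
Ifit3: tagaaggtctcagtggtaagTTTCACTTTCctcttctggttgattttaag
Gbp2: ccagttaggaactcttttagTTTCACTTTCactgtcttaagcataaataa
Irgm1: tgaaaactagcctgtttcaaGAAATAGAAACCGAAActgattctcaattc

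Sensors of foreign RNA were among the higher genes. Ddx58, which encodes the RNA sensor RIG-I, was at 161 RPM in Ras -/- and 23.2 RPM in immortalized -/- (ratio 2.71, SE 0.25). Ifih1, the sensor Mda5, was at 64.5 RPM in Ras -/- and 11.5 RPM in immortalized -/- (ratio 2.40, SE 0.27), and Tlr3, an endosomal receptor of double-stranded RNA, at 18.9 RPM in Ras -/- and 2.81 RPM in immortalized -/- (ratio 2.66, SE 0.35). In both of the other genotypes Ifih1 was lower in the Ras cells, with ratios of -1.28 in +/+ and -1.76 in +/-, while Tlr3 was higher in both, at 1.09 in +/+ and 1.22 in +/-. Ifnb1, the gene of interferon beta, was barely read, with 1 read in Ras -/- and 0 in immortalized -/-. Levels of other interferon genes are not given here. The receptor gene Ifnar1 was at 61.7 RPM in Ras -/- and 71.3 RPM in immortalized -/-, a ratio of -0.30 (SE 0.24).

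Factors that carry the interferon signal to the nucleus were higher. Stat2 was at 244 RPM in Ras -/- and 16.7 RPM in immortalized -/- (ratio 3.78, SE 0.25). Irf9, its DNA-binding partner, was at 72.7 RPM in Ras -/- and 13.1 RPM in immortalized -/- (2.38, SE 0.26). Irf7, a regulator of interferon genes that is itself induced, was at 66.7 RPM in Ras -/- and 1.14 RPM in immortalized -/- (5.78, SE 0.46). Irf3, a regulator that is present without interferon, had 35.9 RPM in Ras -/- and 38.9 RPM in immortalized -/- (-0.20, SE 0.25). In +/+ cells the ratios of Stat2 and Irf9 were -0.35 and -0.11, and that of Irf7 was 0.81.

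Antiviral effectors had the largest ratios. Oas2, which makes the activator of RNase L, was at 83.1 RPM in Ras -/- and at 1 read (0.088 RPM) in immortalized -/-, a ratio of 9.79 with a counting interval of 7.32 to 15.10. Mx1, a GTPase that blocks viral replication, had 21.6 RPM in Ras -/- and 1 read in immortalized -/- (7.86, interval 5.37 to 13.17). Ifit1, which binds foreign RNA caps, was at 108 RPM in Ras -/- and 0.789 RPM in immortalized -/-, a 129-fold difference (7.01, SE 0.53). Isg15, a ubiquitin-like modifier, was at 85.1 RPM in Ras -/- and 1.23 RPM in immortalized -/-, a 65.1-fold difference (6.02, SE 0.45), and Usp18, the protease that removes it, at 74.4 RPM in Ras -/- and 0.785 RPM in immortalized -/- (6.48, SE 0.54). Bst2, which tethers viruses to the cell surface, was at 331 RPM in Ras -/- and 14.3 RPM in immortalized -/- (4.45, SE 0.26). The GTPase genes Gbp3, Igtp and Irgm1 had ratios of 5.99 (SE 0.56), 5.18 (SE 0.54) and 2.81 (SE 0.25). Ratios at the low end of the list were those of Ifit2 at 1.79 (SE 0.26), Ifi27 at 1.56 (SE 0.24) and Ifi35 at 1.36 (SE 0.27). Several effectors were also higher in Ras +/+ than in immortalized +/+, by less than in -/-. The +/+ ratio of Ifit1 was 1.80, with 4.94 RPM in Ras +/+ and 1.3 RPM in immortalized +/+, and those of Oas1a, Oas1g, Oasl2, Oas2, Mx1 and Usp18 were 3.62, 3.78, 2.19, 2.12, 1.56 and 1.47. Of the 33 interferon genes, 22 had ratios above 0 in +/+ and 13 were at least 2-fold higher, and in +/- these counts were 8 and 3. Reads of close copies such as Oas1a and Oas1g can be shared between them, so their values are uncertain.

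**Figure D2:**
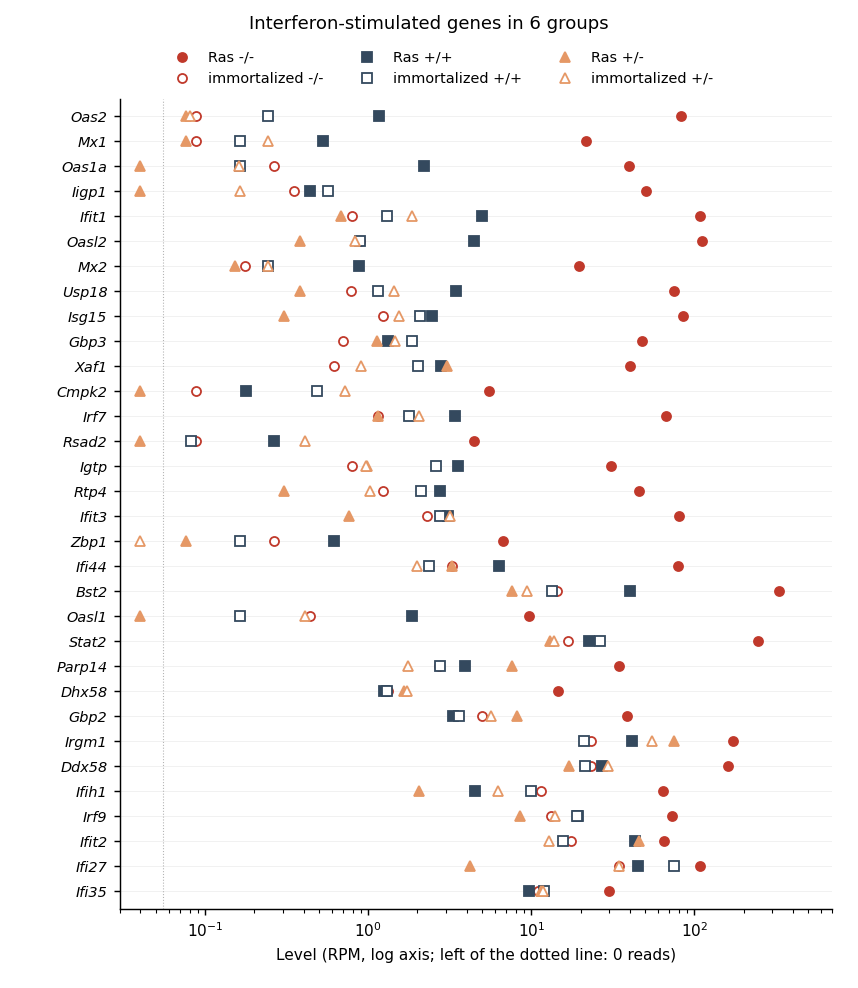
Level of each measured interferon-stimulated gene reported here (RPM, log axis) in 6 groups, with filled symbols for Ras cells, open symbols for immortalized cells, and points left of the dotted line at 0 reads. The filled circle of Ras -/- is the rightmost symbol in every row.

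These ratios of -/- cells were tested against those of the other genotypes, by the difference between the Ras -/- over Ras +/+ ratio and the immortalized -/- over immortalized +/+ ratio, which are each taken within a table. A positive value says that the ratio of Ras over immortalized cells was higher in -/-. An approximate Wald test with Benjamini-Hochberg adjustment over all genes tested called 29 of the 33 interferon genes higher in -/- than in +/+ and 0 lower, where 11.3% of all 16221 genes tested were called higher and 9.00% lower. Against +/- cells, 30 of the 33 were called higher and 0 lower, where 6.69% of 16494 genes were called higher and 4.69% lower. Stat2 had a difference of 4.09 (SE 0.36, adjusted p = 4.76e-27 by the Wald test) from +/+ and 3.95 (SE 0.47, adjusted p = 1.44e-14) from +/-. Isg15 had differences of 5.82 (SE 0.63, adjusted p = 5.06e-18 by the Wald test) from +/+ and 8.27 (SE 0.95, adjusted p = 8.28e-16) from +/-. Ifit2 and Zbp1 were called against neither genotype, Oasl1 and Rsad2 were not called against +/+, and Parp14 was not called against +/-. For Ifit2 the difference from +/+ was 0.43 (SE 0.36, Wald test, adjusted p = 0.454). Of the 18 interferon genes at 1 RPM or more in both -/- groups, a limit chosen after seeing the data, 17 were called higher than in +/+ and 16 higher than in +/-, where 11.4% and 6.54% of all genes within that limit were called higher. The tests share the -/- groups, so they are not independent of each other, and they carry the difference in sex-linked transcripts described above.

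Antigen presentation by MHC class I, a known part of the interferon response, was not uniformly higher. Of 11 measured genes, 3 were at least 2-fold higher and 3 at least 2-fold lower, with a median of 0.34. Among all measured genes, 9.07% were at least 2-fold higher and 10.8% lower. Nlrc5, the transcriptional activator of the pathway, was at 8.39 RPM in Ras -/- and 1.06 RPM in immortalized -/- (2.90, SE 0.49), and B2m, the light chain, at 484 RPM in Ras -/- and 232 RPM in immortalized -/- (0.97, SE 0.23). Tap2, a subunit of the peptide transporter, was at 1.72 RPM in Ras -/- and 12.1 RPM in immortalized -/- (-2.90, SE 0.39). H2-K1, a heavy chain, was at 10.3 RPM in Ras -/- and 43.1 RPM in immortalized -/- (-2.15, SE 0.27), although its reads may be shared with related H2 genes. The difference from +/+ was called for 5 of the 11 genes, all higher, where 11.3% of all genes were called higher, and for 3 of them with the dispersion doubled. Tapbp, the peptide-loading factor tapasin, was at 2.49 (SE 0.33, Wald test, adjusted p = 2.4e-12).

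Chemokines and cytokines moved in both directions. Of 18 measured genes, 9 were at least 2-fold higher and 4 at least 2-fold lower in Ras -/- than in immortalized -/-. Of the 18, 4 were under 1 RPM in immortalized -/- and 3 under 1 RPM in Ras -/-. These passed the minimum only through the other group. With no minimum, 10 of 25 were at least 2-fold higher and 5 lower. At 5 RPM or more, 7 of 13 were higher and 2 lower. Cxcl5, a chemokine for neutrophils, was at 403 RPM in Ras -/- and 33.2 RPM in immortalized -/- (3.51, SE 0.24), and Ccl2, a chemokine for monocytes, at 139.7 RPM in Ras -/- and 13.2 RPM in immortalized -/- (3.32, SE 0.26). Cxcl12, which attracts lymphocytes and stem cells, was at 456 RPM in Ras -/- and 163 RPM in immortalized -/- (1.40, SE 0.23), whereas in +/+ its ratio was -6.30. Ptgs2, the inducible enzyme of prostaglandin synthesis, was at 41.1 RPM in Ras -/- and 321 RPM in immortalized -/- (-3.05, SE 0.24). Cxcl1, another chemokine for neutrophils, had 0 reads in Ras -/- and 4.06 RPM in immortalized -/-, at least 20-fold lower, while Ras +/+ held 13.3 RPM and Ras +/- 84 RPM. For Cxcl1 the difference from +/+ was -8.54 (SE 2.09, Wald test, adjusted p = 0.000525), a value that depends on the 0.5 reads added to each group.

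Extracellular matrix genes were lower as a group. Of 29 measured matrix genes, 22 were at least 2-fold lower and 0 at least 2-fold higher, with a median of -1.79, and the summed level was 28036 RPM in Ras -/- and 77153 RPM in immortalized -/-. The group was lower in the other genotypes too, with medians of -2.25 in +/+ and -2.68 in +/-. Col1a1 and Col1a2, the chains of collagen I, were at 7526 and 2419 RPM in Ras -/-, against 14627 and 6034 RPM in immortalized -/- (ratios -1.05 and -1.41, SE 0.23 each). Fn1, the adhesive glycoprotein fibronectin, was at 2696 RPM in Ras -/- and 8947 RPM in immortalized -/- (-1.82, SE 0.23). Tnc, tenascin C, was at 104 RPM in Ras -/- and 1439 RPM in immortalized -/- (-3.88, SE 0.23). Thbs2, a thrombospondin, was at 0.43 RPM in Ras -/- and 185 RPM in immortalized -/- (-8.84, SE 0.63).

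Postn and Col3a1 were near their immortalized level in Ras -/- and far below it in the Ras cells of the other genotypes. Postn, periostin, was at 300.4 RPM in Ras -/- and 260.0 RPM in immortalized -/- (0.12, SE 0.23), against 0.529 RPM in Ras +/+ and 1345 RPM in immortalized +/+, and 0 reads in Ras +/- and 138 RPM in immortalized +/-. Its difference from +/+ was 11.41 (SE 0.65, Wald test, adjusted p = 5.53e-65). Col3a1, the chain of collagen III, was at 1145 RPM in Ras -/- and 1669 RPM in immortalized -/- (-0.63, SE 0.23), with a difference from +/+ of 3.38 (SE 0.33, Wald test, adjusted p = 6.46e-23) and from +/- of 3.18 (SE 0.44, adjusted p = 3.36e-11). Of the 29 matrix genes, 13 were called higher and 4 lower than in +/+, where 11.3% of all genes were called higher and 9.00% lower. Against +/-, 9 were called higher and 3 lower, where the shares of all genes were 6.69% and 4.69%.

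Small leucine-rich proteoglycans, which organise collagen fibrils, were divided. Of 9 measured genes, 5 were at least 2-fold lower and 2 at least 2-fold higher. Dcn, decorin, was at 99.8 RPM in Ras -/- and 6.21 RPM in immortalized -/- (3.92, SE 0.29), and Lum, lumican, at 22.6 RPM in Ras -/- and 3.63 RPM in immortalized -/- (2.55, SE 0.33). In +/+ cells Dcn was at 0.354 RPM in Ras and 45.6 RPM in immortalized cells, and Lum had 0 reads in Ras +/+ and 36.2 RPM in immortalized +/+. Fmod, fibromodulin, was at 13.6 RPM in Ras -/- and 160.1 RPM in immortalized -/- (-3.64, SE 0.25), and Aspn, asporin, at 1.58 RPM in Ras -/- and 37.9 RPM in immortalized -/- (-4.67, SE 0.39). The difference from +/+ was called higher for 8 of the 9 genes and lower for 0, where 11.3% of all genes were called higher. Against +/-, 3 of the 9 were called higher and 1 lower, where 6.69% of all genes were called higher and 4.69% lower.

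Of the matrix proteases and their inhibitors, 5 of 21 measured genes were at least 2-fold higher and 9 at least 2-fold lower. Over the whole list, 13 of the 21 ratios were below 0 and the median was -0.41. Among the higher genes was the protease Mmp3, stromelysin 1, at 109.6 RPM in Ras -/- and 9.72 RPM in immortalized -/- (3.41, SE 0.27). Another was Mmp13, a collagenase, at 20.1 RPM in Ras -/- and 1.67 RPM in immortalized -/- (3.51, SE 0.41). The inhibitors differed among themselves. Timp1 was at 88.6 RPM in Ras -/- and 679 RPM in immortalized -/- (-3.03, SE 0.23), while Timp3 was at 3891 RPM in Ras -/- and 623 RPM in immortalized -/- (2.56, SE 0.23). Serpine2, an inhibitor of serine proteases, was at 0.502 RPM in Ras -/- and 115 RPM in immortalized -/- (-7.93, SE 0.59). Timp3 went the other way in +/+, with a ratio of -2.92, and its difference from +/+ was 5.44 (SE 0.33, Wald test, adjusted p = 2.55e-58).

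Contractile genes were lower in Ras -/- for 10 of 17 measured members by at least 2-fold and higher for 0, with a median of -1.38. Cnn1, the smooth muscle calponin, was at 0.43 RPM in Ras -/- and 275 RPM in immortalized -/- (-9.41, SE 0.63). Tagln, transgelin, was at 422 RPM in Ras -/- and 2542 RPM in immortalized -/- (-2.68, SE 0.23), and Acta2, smooth muscle actin, at 1515 RPM in Ras -/- and 3698 RPM in immortalized -/- (-1.38, SE 0.23). The more general cytoskeletal genes Tpm4, Cald1 and Cnn2 had ratios of -0.19, -0.18 and 0.01. Tests of the difference split by genotype, with 4 genes called higher and 5 lower than in +/+, and 8 higher and 0 lower than in +/-. The counts against +/+ stand beside 11.3% higher and 9.00% lower over all genes, and those against +/- beside 6.69% and 4.69%. Tagln, for one, was at -1.65 (SE 0.33, Wald test, adjusted p = 7.12e-06) against +/+ and at 2.80 (SE 0.44, adjusted p = 1.14e-08) against +/-. The CArG box is the element bound by serum response factor. It was present in the 250-base promoters of 3 of 14 contractile genes with a sequence (21.4%) and in 1.22% of those of measured genes. The 3 were Myl9, Vcl and Cnn2, of which Cnn2 did not differ between the groups. The lower genes Acta2 and Cnn1 had 0 matches.

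**Figure D3:**
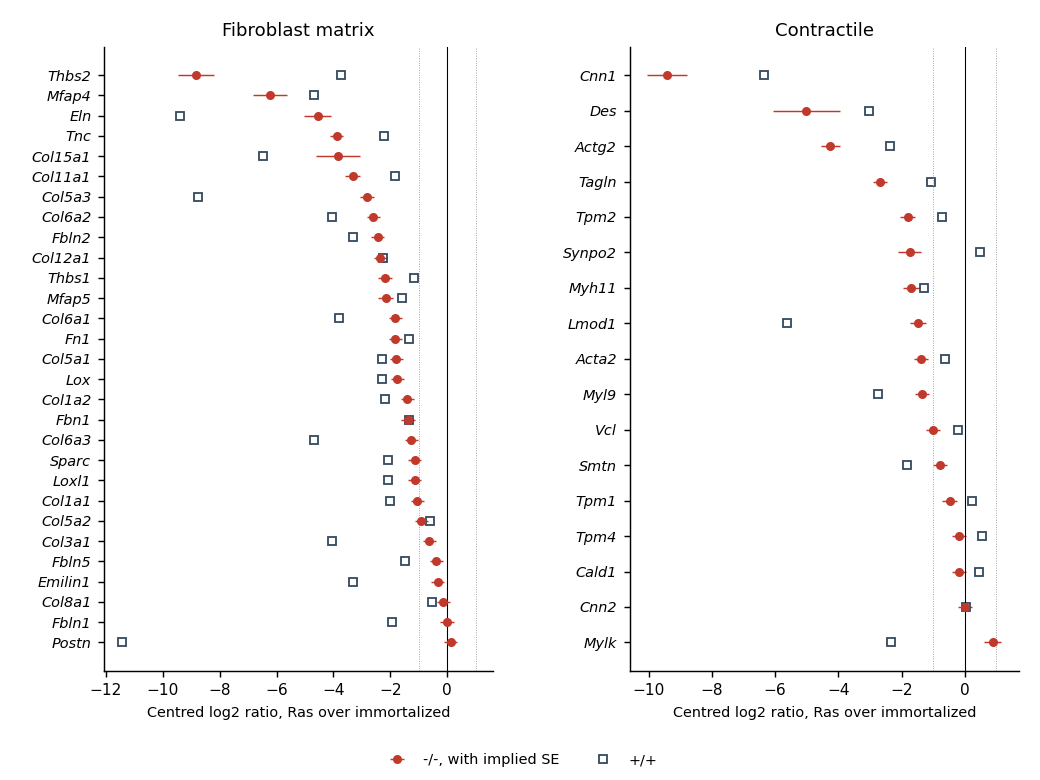
Centred log2 ratio of Ras over immortalized cells for each measured matrix gene (left) and contractile gene (right, on its own scale), with filled circles and implied SE bars for -/- open squares for +/+, and dotted lines at 2-fold. All but 1 of the matrix ratios of -/- lie at or left of 0, and Postn, Col5a3 and Thbs2 show the widest gaps to the +/+ squares.

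Growth factors and their binding proteins included some of the smallest ratios of all. Of 27 measured genes, 4 were at least 2-fold higher and 12 at least 2-fold lower. Of the 27, 8 were under 1 RPM in Ras -/- and passed the minimum only through immortalized -/-. At 5 RPM or more, 4 of 23 were higher and 9 lower. Igf2, an embryonic growth factor, was at 0.43 RPM in Ras -/- and 237 RPM in immortalized -/- (-9.20, SE 0.63), and Igfbp2, which binds it, had 1 read in Ras -/- against 115 RPM in immortalized -/- (-10.74, interval -16.04 to -8.26). Igfbp3 and Igfbp5 had 0 reads in Ras -/- and were at least 85.2-fold and 82.2-fold lower than in immortalized -/-. Both were at 0 reads in Ras +/+ and Ras +/- too. On the higher side, the fibroblast growth factors Fgf7 and Fgf10, which act on epithelia, were at 233 and 109.9 RPM in Ras -/-, against 47.6 and 16.1 RPM in immortalized -/- (ratios 2.21 and 2.68, SE 0.24 and 0.26).

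In the TGF-beta and BMP family, Bmp2, a bone-inducing ligand, was at 170.5 RPM in Ras -/- and 1.4 RPM in immortalized -/- (6.84, SE 0.43). In +/+ cells Bmp2 had 0 reads in the Ras group and 14.7 RPM in the immortalized group. Grem1, a BMP antagonist, was at 694 RPM in Ras -/- and 108 RPM in immortalized -/- (2.60, SE 0.23). Inhba, the activin subunit, was at 37.1 RPM in Ras -/- and 219 RPM in immortalized -/- (-2.65, SE 0.24). Of 26 measured genes, 3 were at least 2-fold higher and 9 at least 2-fold lower. The shares of all measured genes were 9.07% higher and 10.8% lower. Wnt modulators were lower for 12 of 20 by at least 2-fold and higher for 2, and 7 of the 20 were under 1 RPM in Ras -/- and passed the minimum only through immortalized -/-. With no minimum, 12 of 24 were lower and 5 higher, and at 5 RPM or more 4 of 9 were lower and 1 higher. Among them, Dkk3 was at 2.08 RPM in Ras -/- and 199.9 RPM in immortalized -/- (-6.68, SE 0.35), with nearly the same ratio in +/+ (-6.64) and +/- (-6.65). Wnt5a, a non-canonical ligand, had ratios of -3.69 in -/- and -3.68 in +/+. Rspo2, which strengthens Wnt signals, went the other way at 494 RPM in Ras -/- and 135 RPM in immortalized -/- (1.79, SE 0.23).

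Ras pathway output was mixed in Ras -/-. Hras was at 100.4 RPM in Ras -/- and 102 RPM in immortalized -/- (-0.11, SE 0.24), and whether reads of the introduced HRas map to the mouse gene is not known. Of 27 measured genes of the Ras-MAPK list, 4 were at least 2-fold higher and 6 at least 2-fold lower, with a median of 0.26 against 0.61 in +/+ and -0.47 in +/-. The higher ones were Il1rl1, the interleukin 33 receptor, at 1798 RPM in Ras -/- and 503 RPM in immortalized -/- (1.75, SE 0.23), the chromatin protein Hmga2 (1.04, SE 0.23), and the ETS factors Etv1 (2.38, SE 0.54) and Etv4 (1.20, SE 0.26). Of the feedback inhibitors, Spry1 had 2 reads in Ras -/- against 7.95 RPM in immortalized -/- (-5.88, interval -8.96 to -3.99), while Spry2 had a ratio of 0.13 (SE 0.25) and Spry4 one of -0.58 (SE 0.30). The ERK phosphatase genes also differed, with Dusp6 at 0.97 (SE 0.26), Dusp4 at -1.11 (SE 0.45) and Dusp5 at -2.31 (SE 0.27).

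Some of these outputs differed from +/+ cells. Of the 27 genes, 10 were called lower and 2 higher in -/- than in +/+, against a background of 9.00% lower and 11.3% higher. The 10 lower calls became 3 with the dispersion doubled and 5 at an adjusted p under 0.01 by the Wald test. Against +/-, 4 were called lower and 3 higher, where 4.69% of all genes were called lower and 6.69% higher. Dusp5 was at 8.32 RPM in Ras -/- and 38.7 RPM in immortalized -/-, against 39.9 RPM in Ras +/+ and 40.5 RPM in immortalized +/+, a difference of -2.20 (SE 0.37, Wald test, adjusted p = 7.66e-08). Hmga1, a chromatin protein of growing cells, had a difference of -2.48 (SE 0.33, Wald test, adjusted p = 2.01e-12). Fosl1, an AP-1 subunit downstream of ERK, was at 91.1 RPM in Ras -/- and 90.2 RPM in immortalized -/-, with a ratio of -0.07 in -/- and 1.07 in +/+ (difference -1.18, SE 0.34, Wald test, adjusted p = 0.00402). Epidermal growth factor receptor ligands varied too, with Tgfa called higher at 4.31 (SE 0.76, Wald test, adjusted p = 4.1e-07) and Hbegf lower at -1.82 (SE 0.34, adjusted p = 1.98e-06).

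Immediate-early genes, which serum and ERK induce, were lower for 10 of 24 by at least 2-fold and higher for 0, with a median of -0.75 against -0.69 in +/+ and -0.98 in +/-. Egr2 was at 2.22 RPM in Ras -/- and 28 RPM in immortalized -/- (-3.74, SE 0.36), and Egr1 had a ratio of -1.61. Ccn2, a matrix growth factor induced by Yap and TGF-beta, was at 252 RPM in Ras -/- and 2629 RPM in immortalized -/- (-3.47, SE 0.23).

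Proliferation genes were slightly higher as a group. All but 1 of 32 mitotic genes had ratios above 0, the median was 0.54 and 0 passed 2-fold, with Cenpf, a centromere protein, at 0.91 (SE 0.24) and Aurkb, a mitotic kinase, at -0.02. The median was larger in the other genotypes, at 0.81 in +/+ and 1.36 in +/-. For DNA replication genes the median was 0.30, and Prim1, the DNA primase subunit, was at 107 RPM in Ras -/- and 24.6 RPM in immortalized -/- (2.03, SE 0.25). Cdkn2a, which encodes p19ARF and p16, was at 12.7 RPM in Ras -/- and 117 RPM in immortalized -/- (-3.30, SE 0.26), with a ratio of -3.33 in +/+. Mdm2, the p53 ligase that p19ARF binds, was at 201 RPM in Ras -/- and 83.8 RPM in immortalized -/- (1.18, SE 0.24), and Cdkn1a, the p53 target p21, at 177 RPM in Ras -/- and 183 RPM in immortalized -/- (-0.14, SE 0.23). Pmaip1, a pro-death p53 target, was at 4.88 RPM in Ras -/- and 16.2 RPM in immortalized -/- (-1.82, SE 0.31), against a +/+ ratio of 3.27, a difference of -5.11 (SE 0.43, Wald test, adjusted p = 1.37e-30).

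Genes of the Usp28 and Fbw7 system differed little. Fbxw7, the gene of Fbw7, was at 27 RPM in Ras -/- and 24.4 RPM in immortalized -/- (0.06, SE 0.26), and Usp28 had a ratio of 0.07 (SE 0.28). Of 10 measured genes of the ligase list, 1 passed 2-fold, Chek2, a DNA damage kinase, at 1.04 (SE 0.28). Among 23 measured genes whose proteins Fbw7 binds, 3 were at least 2-fold lower and 0 higher. Over all measured genes, 10.8% were at least 2-fold lower and 9.07% higher. Myc was at 149 RPM in Ras -/- and 104 RPM in immortalized -/- (0.44, SE 0.24), Jun at 145 RPM in Ras -/- and 259 RPM in immortalized -/- (-0.93, SE 0.23), and Ccne1, cyclin E1, at 40.4 RPM in Ras -/- and 68.1 RPM in immortalized -/- (-0.84, SE 0.24). Growth genes driven by Myc had a median of 0.44, with 5 of 30 at least 2-fold higher, and 11 were called lower than in +/+ and 0 higher, where 9.00% of all genes were called lower. The 11 became 2 with the dispersion doubled and 4 at an adjusted p under 0.01 by the Wald test. Against +/-, 4 of the 30 were called lower and 0 higher, where 4.69% of all genes were called lower and 6.69% higher. Ncl, nucleolin, was at 1329 RPM in Ras -/- and 554 RPM in immortalized -/- (1.17, SE 0.23). These are transcript levels, and protein levels were not measured.

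**Figure D4:**
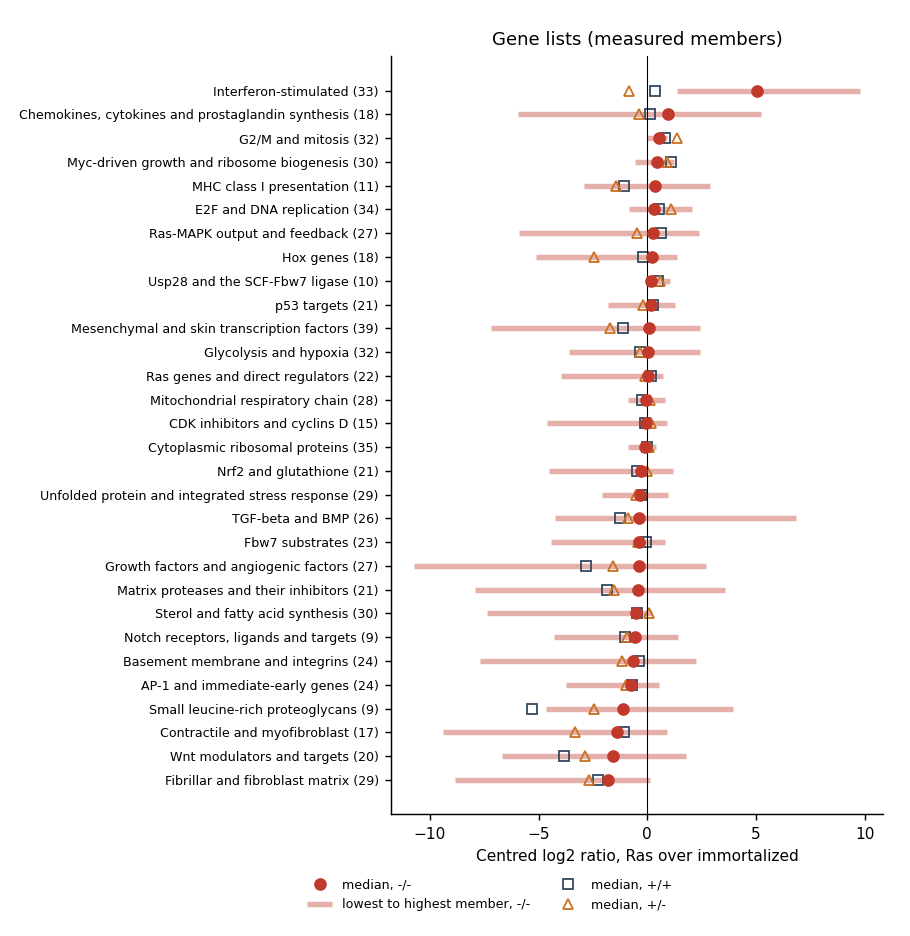
Median centred log2 ratio of Ras over immortalized cells for each gene list, with the number of measured members in parentheses, for -/- (filled circles, bars from the lowest to the highest member), +/+ (squares) and +/- (triangles). The interferon list stands at 5.05 in -/- and at 0.34 in +/+ and -0.82 in +/-, and the matrix and contractile lists stand left of 0 in all 3 genotypes.

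Several imprinted genes, chosen for description after their values were seen, were near or at 0 reads in Ras -/-. They were picked from more imprinted genes, such as Igf2r, Gnas, Grb10, Mest and Snrpn, whose values are not reported here. The genes described do not stand for imprinted genes as a class. Meg3, a maternally expressed noncoding RNA, had 0 reads in Ras -/- against 759 RPM in immortalized -/-, at least 3750.4-fold lower, and 0 reads in Ras +/+ and Ras +/-. H19, another maternal noncoding RNA, had 0 reads in Ras -/- and 487 RPM in immortalized -/-, at least 2406-fold lower. Dlk1, a paternally expressed Notch ligand, had 1 read in Ras -/- and 54.5 RPM in immortalized -/- (-9.66, interval -14.96 to -7.17), and Ndn, necdin, 0 reads in Ras -/- and 52.3 RPM in immortalized -/-. Peg10 and Peg3 were kept in Ras -/- but not in Ras +/+. Peg10 was at 61.2 RPM in Ras -/- and 58.2 RPM in immortalized -/- (-0.01, SE 0.24), against 0.44 RPM in Ras +/+ and 47 RPM in immortalized +/+, a difference of 6.68 (SE 0.70, Wald test, adjusted p = 2.16e-19). Peg3 was at 19.1 RPM in Ras -/- and 18.7 RPM in immortalized -/-, against 0 reads in Ras +/+ and 16.5 RPM in immortalized +/+ (difference 8.58, SE 2.07, Wald test, adjusted p = 0.000429).

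Across all measured genes, the ratios of -/- and +/+ cells correlated at r = 0.57 over 15752 genes, and those of -/- and +/- cells at r = 0.55 over 15676 genes. The correlated ratios share no library but share the experiment sets and their processing, and genes are not independent replicates. In all, 1835 genes were called higher and 1460 lower in -/- than in +/+, and 1104 higher and 773 lower than in +/-.

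Genes of chromosome 10 were higher as a whole in Ras -/-. The median ratio of its 595 genes at 5 RPM or more was 0.51, with 77% above 0, where the medians of the other chromosomes lay between -0.17 and 0.21. The medians of chromosome 10 were 0.04 in +/+ and 0.05 in +/-. Within the Ras set, the median log2 of Ras -/- over Ras +/+ was 0.39 on this chromosome, where the other chromosomes lay between -0.40 (chromosome 8) and 0.37 (chromosome 13). Within the immortalized set the median log2 of immortalized -/- over immortalized +/+ was -0.00. Of the genes of chromosome 10, 26.6% were called higher than in +/+, against 11.3% of all genes tested and 6.13% to 18.4% on the other chromosomes. Shifts of similar size occurred elsewhere in the series, as chromosome 19 stood at 0.49 in +/-. Genes named here that lie on it include Prim1, Mdm2, Stat2, Timp3, Dcn, Lum, Hmga2, Dusp6, Egr2, Ccn2 and Slc1a6, by the GRCm38 annotation. The part of this chromosome-wide difference in their values was not tested.

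**Figure D5:**
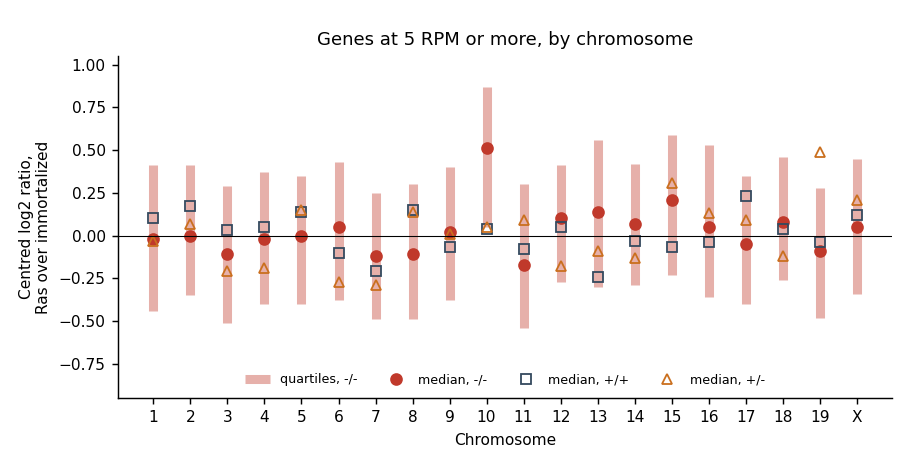
Median centred log2 ratio of Ras over immortalized cells for genes at 5 RPM or more on each chromosome, for -/- (filled circles with quartile bars), +/+ (squares) and +/- (triangles). Chromosome 10 stands at 0.51 in -/-, at 0.04 in +/+ and at 0.05 in +/-.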

How the data were processed

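Group levels were rebuilt from the 2 deposited tables of the authors' comparisons, which hold, per the file headers, a mean log2 concentration, a log2 ratio of +/+ over the other genotype and a p-value for each Ensembl gene. Per the submitters' processing notes, the tools were CASAVA, FastQC, Bowtie 0.12.8 and edgeR, with build mm9. The deposited log2 values of a gene give its share of reads in each group, from which RPM, reads and depth were computed, and of the values under 20 reads, 79.6% to 100.0% came out whole to within 0.1 reads. No single library can be read from them. The deposited p-values gave a common dispersion for each comparison with +/+ (coefficient of variation 14.4% for Ras -/- and 21.1% for immortalized -/-). Ratios of -/- over +/- were rebuilt from the levels of 2 comparisons. Their tests took the larger dispersion of each set, 32.4% in the immortalized set, from +/-. Rebuilt p-values correlated with the deposited ones at r = 0.999 on the z scale, across genes. The dispersion was fitted to these same p-values and both carry the same ratios, so this is no independent check.

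Genes with a mean of 1 RPM or more over both groups were kept, and log2 ratios were centred on the median gene. Differences between genotypes were tested with an approximate Wald test (0.5 reads added, Benjamini-Hochberg over all genes tested, threshold 0.05), after a test on simulated data. These p-values rest on a common dispersion and on 2 and 3 libraries a group, which may be technical replicates in the Ras set. Intervals and the floor of 3 reads cover counting error only. Gene symbols and positions came from the GRCm38 annotation. Python 3.11.15, numpy 2.4.6, pandas 2.3.3, scipy 1.17.1 and matplotlib 3.10.9 were used.

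The members and gene lists were chosen with earlier results of these data known. Named genes were Usp28, Fbxw7, Hras, Cdkn2a and the sex-linked genes. Added to these were the 15 highest and 15 lowest ratios of protein-coding or unclassified genes at 10 RPM or more. So were up to 5 members of each list with the largest ratios, and the measured interferon and Ras-MAPK genes. The largest differences, 10 each way from +/+ and 5 each way from +/-, were also named. Other genes named were chosen after their values were seen. Some genes that the rule names are not reported here. Alternatives were other centrings, other level minimums, reads added, a doubled dispersion and a stricter threshold.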

Additional observations from a re-analysis of the deposited data

Results flagged for a closer look

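The ratio of Ras over immortalized cells differed between -/- and another genotype, by the approximate Wald test of the difference, for genes that are set out here with their group levels. The largest adjusted p (Wald test, Benjamini-Hochberg) among those set against +/+ was 0.00588, for Htr1b, and the largest among those set against +/- was 4.23e-05, for Gm16263. A difference in which a group had 0 reads depends on the 0.5 reads added and is no bound.

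The 10 genes reported for the largest positive differences from +/+ mostly had few or 0 reads in Ras +/+. They were picked by the size of the difference and do not stand for all genes called higher. For Bmp2, a BMP ligand, the difference was 15.27, with 170.5 RPM in Ras -/- and 1.4 RPM in immortalized -/- against 0 reads in Ras +/+ and 14.7 RPM in immortalized +/+. For Sfrp2, a secreted Wnt modulator, it was 14.87, with 109 RPM in Ras -/- and 83.6 RPM in immortalized -/- against 0 reads in Ras +/+ and 1008 RPM in immortalized +/+. Lum had a difference of 12.31, Postn of 11.41, Dcn of 10.84 and Cxcl5 of 10.85. Lrrc75b had 10.46 and D030025P21Rik 10.42. The difference was 10.42 for Diras2, a Ras-family GTPase, at 14.8 RPM in Ras -/- and 2.72 RPM in immortalized -/- against 0 reads in Ras +/+ and 11.1 RPM in immortalized +/+. For Islr, a secreted protein of mesenchymal cells, it was 10.28.

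The 10 genes reported for the largest negative differences from +/+ mostly had few or 0 reads in Ras -/-. They too were picked by the size of the difference and do not stand for all genes called lower. Xist had a difference of -10.88 and Tsix, its antisense partner, of -10.51, and reads of the pair cannot be told apart since the strand of counting is not given in the sources used here. Efemp1, a matrix glycoprotein, had -9.45, with 0.143 RPM in Ras -/- and 59.8 RPM in immortalized -/- against 38.2 RPM in Ras +/+ and 18.3 RPM in immortalized +/+. Krt19, a keratin, had -8.74, with 0.215 RPM in Ras -/- and 67 RPM in immortalized -/- against 71.5 RPM in Ras +/+ and 44.8 RPM in immortalized +/+. Cyp1b1 had -8.64 and Alcam, a cell adhesion molecule, -6.88. The noncoding B230206H07Rik had -8.79, the transporter gene Slc6a17 -8.67, Cth, an enzyme of cysteine synthesis, -7.29, and the serotonin receptor gene Htr1b -7.06.

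Against +/-, the largest positive differences reported were those of Gpnmb (12.83), Postn (12.05), Plpp3 (11.34), Rspo2 (10.18) and Gm16263 (10.16). Gpnmb, a membrane glycoprotein, was at 628 RPM in Ras -/- and 52.6 RPM in immortalized -/-, against 0.0756 RPM in Ras +/- and 68.9 RPM in immortalized +/-. Plpp3, a lipid phosphatase, was at 492 RPM in Ras -/- and 85.7 RPM in immortalized -/-, against 0.0757 RPM in Ras +/- and 51.3 RPM in immortalized +/-. The largest negative differences reported were those of Krt19 (-10.34), Fgf5 (-10.32), Flt4 (-10.17), Cyp1b1 (-9.64) and Cdh3 (-8.80). Fgf5, a growth factor, was at 0.143 RPM in Ras -/- and 14.9 RPM in immortalized -/-, against 83.7 RPM in Ras +/- and 5.43 RPM in immortalized +/-. Cdh3, P-cadherin, was at 0.358 RPM in Ras -/- and 70.6 RPM in immortalized -/-, against 574 RPM in Ras +/- and 230.1 RPM in immortalized +/-.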

How the results depend on the processing

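Counts of genes moved most with the level minimum and the dispersion. With no minimum, 730 genes were at least 4-fold higher, and with a minimum of 5 RPM 200 were higher and 427 lower. With the dispersion doubled, 1190 genes were called higher and 635 lower than in +/+, and 655 higher and 391 lower than in +/-. At an adjusted p under 0.01 by the Wald test, 844 were called lower than in +/+ and 482 lower than in +/-. Without centring, 430 genes were at least 4-fold higher and 832 lower. With the dispersion doubled, 28 of the 33 interferon genes were called higher than in +/+ and 29 higher than in +/-, while 3 of the 27 Ras-MAPK genes and 2 of the 30 Myc-driven genes were called lower than in +/+. Leaving out a replicate could not be run, since the tables hold no single libraries. No paired analysis was possible because the columns are group values that carry no replicate numbers. The spread between libraries therefore limits every value, and ratios of genes with few reads are limited by counting.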

Other observations

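Genes of body position and mesenchymal identity differed among themselves. Of 18 measured Hox genes, which mark position along the body and limb axes, 4 were at least 2-fold higher and 7 at least 2-fold lower in Ras -/- than in immortalized -/-. With no level minimum, 4 of 33 were higher and 17 lower, and the median was -1.08 in place of 0.23, while at 5 RPM or more 3 of 10 were higher and 2 lower. Hoxa11 was at 97.2 RPM in Ras -/- and 36 RPM in immortalized -/- (ratio 1.35, SE 0.24), and Hoxa10 at 114 RPM in Ras -/- and 44.5 RPM in immortalized -/- (ratio 1.26, SE 0.24). Hoxa7 had 0 reads in Ras -/- and 6.58 RPM in immortalized -/-, at least 32.5-fold lower, while its levels in +/+ were 17.5 RPM in Ras +/+ and 8.66 RPM in immortalized +/+. Of 39 measured mesenchymal and skin transcription factors, 7 were at least 2-fold higher and 12 at least 2-fold lower. Of the 39, 6 were under 1 RPM in Ras -/- and passed the minimum only through immortalized -/-. At 5 RPM or more, 7 of 31 were higher and 6 lower, and with no minimum 8 of 45 were higher and 14 lower. Pitx1, a hindlimb factor, had 0 reads in Ras -/- and 29.1 RPM in immortalized -/-, at least 144-fold lower. Tbx4, another hindlimb factor, was at 28.5 RPM in Ras -/- and 55.5 RPM in immortalized -/- (ratio -1.05, SE 0.25), against 0.0882 RPM in Ras +/+ and 48.3 RPM in immortalized +/+. Prrx1 and Twist1, factors of limb and embryonic mesenchyme, had ratios of 0.18 and 0.13.

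Respiratory chain, ribosomal protein and glycolysis lists were close to the median gene, with single exceptions. Sterol and fatty acid synthesis genes were lower as a group. The 28 measured respiratory chain genes had a median ratio of -0.06 and the 35 ribosomal protein genes one of -0.11, and 0 of either passed 2-fold. Of 32 genes of glycolysis and hypoxia, 3 were at least 2-fold higher and 1 lower. The shares of all measured genes were 9.07% at least 2-fold higher and 10.8% lower. Car12, a carbonic anhydrase of the cell surface, was at 64.7 RPM in Ras -/- and 11.5 RPM in immortalized -/- (ratio 2.40, SE 0.27), against 0.263 RPM in Ras +/+ and 2.08 RPM in immortalized +/+. Slc16a3, a lactate exporter, was at 1.22 RPM in Ras -/- and 14 RPM in immortalized -/- (ratio -3.61, SE 0.43). Of 30 sterol and fatty acid synthesis genes, 28 had ratios below 0 and 5 were at least 2-fold lower. Their median was -0.54, against -0.47 in +/+ and 0.07 in +/-. Of 9 measured Notch genes, 3 were at least 2-fold lower and 1 higher, and the target Hes1 was at 5.23 RPM in Ras -/- and 29.8 RPM in immortalized -/- (ratio -2.60, SE 0.30).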
